A study of Rattus norvegicus with 9 samples.

Results

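The miRNAs described here are the late-numbered ones of the rat, those whose name carries a number of 1000 or more. They were picked from the count table by name alone, and the rule took 137 of its 762 rows of mature miRNAs. miRNA numbers follow the order of discovery, so these were named after the families that are best known across vertebrates. The small RNA came from rat vascular smooth muscle cells of the aorta, kept in culture in 3 states, with 3 libraries per state. H3K4me2-edited cells had been transduced with a lentivirus that carries the construct labelled Myocardin-F-LSD1, a name that joins a co-activator of contractile genes with a demethylase of lysine 4 on histone H3. PDGF-BB cells had received platelet-derived growth factor BB, a smooth muscle mitogen, at 30 ng/ml over 24 h. The sample titles call both the edited and the PDGF-BB cells de-differentiated. Differentiated cells carried the treatment label "None". The protocol text also gives 24 h without serum before treatment, and does not say whether that holds for edited and differentiated cells. No library of cells given lentivirus without the construct was analysed here, so transduction and construct cannot be told apart. Nothing in the labels says whether replicates were grown apart. The p-values therefore reflect only how far these libraries spread, which may be technical.

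A miRNA is cut from a hairpin transcript, and either arm of the hairpin (5p or 3p) can be kept. Target transcripts are found mostly through the seed, bases 2 to 8. Many hairpins lie within host genes, and some lie within small nucleolar RNAs (snoRNAs) or small Cajal body RNAs (scaRNAs), whose usual task is to guide the modification of other RNAs. A few lie on the strand opposite a better known miRNA and give a transcript complementary to it.

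The mature sequences below come from RefSeq (table of build GRCr8), 5′ to 3′, with the seed in capitals. They are the late-numbered miRNAs that changed in some comparison, with their abundant arms, and were matched by name. Of the 137 rows 122 had a sequence there, including each of the 15 that were abundant enough to test.
miR-3068-5p: uUGGAGUUcaugcaaguucuaacca
miR-3068-3p: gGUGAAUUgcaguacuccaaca
miR-1839-5p: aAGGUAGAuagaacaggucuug
miR-1843a-5p: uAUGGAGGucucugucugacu
miR-1843b-5p: aUGGAGGUcucugucugacuuag
miR-1843a-3p: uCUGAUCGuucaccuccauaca
miR-3559-5p: uGACAGACuuaguacuacauga
miR-3558-5p: cCAUAGAAgucaucccacagugcc
miR-3558-3p: aCUGUGGAggguuucuaugu
miR-3065-5p: uCAACAAAaucacugaugcu
miR-3075: uGUCUGGGagcagccaaggacaag
miR-3102: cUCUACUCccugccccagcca

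The label calls these miRNAs mostly less conserved. Conservation across species was not measured here. Seed sharing within the rat was counted, which is not a measure of conservation. Of the 122 late-numbered miRNAs with a sequence, 4 (3.28%) had the seed of a miRNA numbered under 1000 or of a let-7 miRNA. Of 564 other rows with a sequence, 165 (29.3%) shared their seed with another miRNA of that kind. These rows could thus match within their own set. Seeds shared only among late-numbered miRNAs, such as that of miR-1843a-3p and miR-1843b-3p, were not counted. The shares are therefore not measured alike. The 1 tested late-numbered miRNA counted as a sharer is miR-3065-5p, whose seed is that of miR-7a-1-3p. miR-1843a-5p and miR-1843b-5p have 20 bases in common, offset by 1, so their seeds differ, and reads of either could be counted for the other. The sources used here do not say how the authors' counting split such reads.

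RefSeq lists the hairpins behind 5 of the 6 most abundant late-numbered rows under snoRNA or scaRNA genes. Those of miR-3068 are in Snora58, that of miR-1839-5p is in Scarna15 and those of miR-1843a are in Scarna3. The counts do not tell whether reads of these rows are miRNAs or other fragments of these snoRNAs and scaRNAs. This was not tested, and it holds for each result on these rows below. The hairpins are shown here as RefSeq gives them, with the mature arms in capitals, because these rows carry most of the counts. Their positions in GRCr8 are chr6:112811875-112811950 (minus strand) for Snora58, chr1:144893856-144893919 (plus strand) for Scarna15 and chr6:104955347-104955436 (minus strand) for Scarna3.
Snora58: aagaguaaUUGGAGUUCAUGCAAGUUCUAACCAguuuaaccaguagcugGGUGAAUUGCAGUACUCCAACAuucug
Scarna15: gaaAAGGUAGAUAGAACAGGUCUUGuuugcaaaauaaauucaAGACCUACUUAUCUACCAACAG
Scarna3: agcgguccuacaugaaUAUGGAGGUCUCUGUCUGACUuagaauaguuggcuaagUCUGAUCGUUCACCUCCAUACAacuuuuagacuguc

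By GRCr8 positions, 14 of the 15 tested miRNAs lie within the bounds of a protein-coding gene, as do 79 of the 122. Snora58 lies within Alkbh1, a nucleic acid demethylase, and Scarna3 within Dcaf5, a substrate receptor of a ubiquitin ligase. miR-1843b lies within Cop1, a ubiquitin ligase. miR-3559 lies within Zdhhc15, a palmitoyltransferase, and miR-3558 within Ttc7a, a scaffold of a lipid kinase complex. miR-1306 lies within Dgcr8, whose product helps to cut miRNA hairpins. Exon, intron and sense relative to the host were not determined, since the gene table gives only bounds.

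Library totals were from 3149262 to 11392178 counts in edited, from 1982051 to 3568888 in PDGF-BB and from 1783409 to 3850232 in differentiated cells, so the edited replicates 2 and 3 were the deepest and edited replicate 1 lay within the range of the others. Levels are CPM, that is counts relative to the library total after scaling by TMM factors. Changes are given as log2 fold change ± SE and come from edgeR's quasi-likelihood fit to all 304 tested miRNAs. A change was called at an adjusted p (Benjamini-Hochberg over all 304) under 0.05. With library totals in place of TMM, the median log2 fold change over all miRNAs moved by 0.45 for edited against differentiated, by 0.32 for edited against PDGF-BB and by 0.13 for PDGF-BB against differentiated. Within the edited group, replicate 1 lay apart from replicates 2 and 3 (r of log2 CPM 0.984 and 0.985, against 0.996 between replicates 2 and 3). The smooth muscle markers miR-143 and miR-145, with miR-1 and miR-133, summed to between 37105 and 63115 CPM in edited, 133164 and 171193 in PDGF-BB, and 214839 and 251386 in differentiated libraries, with 7 of 10 arms counted and miR-133a-5p, miR-133b-5p and miR-1-5p at 0. Endothelial miR-126a arms (2 of 2 counted) summed to between 2905 and 3346 CPM in edited, 1791 and 1895 in PDGF-BB, and 1760.0 and 2145 in differentiated libraries. Neural marker arms (7 of 12 counted, both arms of miR-124 and miR-137 and 1 of miR-219a at 0) summed to between 175 and 193 CPM in edited, 64.3 and 69.1 in PDGF-BB, and 61.8 and 64.9 in differentiated libraries. Blood marker arms (9 of 11 counted, miR-451-3p and miR-223-5p at 0) summed to between 76.9 and 98.7 CPM, 49.3 and 65.8 CPM, and 48.7 and 73.5 CPM in the same order. Epithelial marker arms (10 of 10 counted) summed to between 20.8 and 42.1, 36.2 and 50.0, and 74.3 and 103 CPM, and the skeletal muscle miR-206 (1 of 2 arms counted) lay between 2.599 and 19.4, 4.36 and 28.8, and 7.68 and 49.6 CPM, again in that order. The part of other cells in the results below was not tested, and fewer cells of a type cannot be told apart from less RNA per cell.

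Late-numbered miRNAs were detected less often than other rows and were mostly rare. Of the 137 rows 66 (48.2%) had a count in some library, against 436 of the 625 other rows (69.8%). Only 22 had a count in each of the 9 libraries, and 307 other rows did. Of the 66, 36 had 10 or more counts over the 9 libraries, 30 had 1 to 9, and 11 of those 30 had a single count. The edge of the rule is empty on both sides, since the arms of miR-1188 just inside it and miR-935 just outside it had 0 counts in each library.

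**Figure D1:**
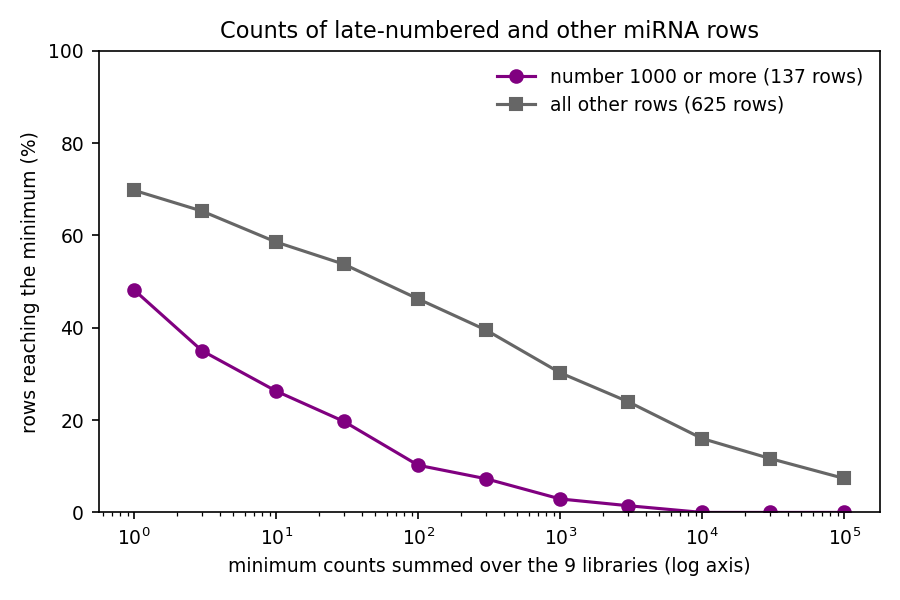
The percentage of rows (vertical axis) whose counts summed over the 9 libraries reach a minimum (horizontal log axis), for the 137 late-numbered rows and the 625 other rows. The late-numbered line starts at 48.2% for 1 count and falls to 10.2% at 100 counts, where the other rows are at 46.2%.

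The libraries of the edited group held 40, 47 and 43 late-numbered miRNAs with a count, those of the PDGF-BB group 34, 37 and 43, and those of the differentiated group 33, 48 and 38. Rarefied to the smallest library total of 1783409 counts, the expected numbers were 32.2 ± 1.46 in edited, 34.8 ± 1.68 in PDGF-BB and 35.8 ± 2.79 in differentiated libraries (SD, n = 3 each). At equal depth the 3 groups thus lay within a few miRNAs of each other. A count of 0 allows up to 3 counts, which is 0.205 CPM in edited replicate 2 and 1.99 CPM in differentiated replicate 1, and these limits cover counting error only.

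As a share of all counts, late-numbered miRNAs made up 0.0469%, 0.0435% and 0.0322% in the edited libraries, 0.0595%, 0.0606% and 0.0594% in the PDGF-BB libraries and 0.0585%, 0.0617% and 0.0651% in the differentiated libraries. Each edited library lay below each of the other 6. The 95% Wilson interval, which covers counting error only, was 0.0446% to 0.0494% for the highest edited library and 0.0551% to 0.0622% for the lowest differentiated one. The means were 0.0409% ± 0.00770 in edited, 0.0598% ± 0.000645 in PDGF-BB and 0.0618% ± 0.00330 in differentiated cells (SD, n = 3 each). These shares were not tested, since a sum over chosen members gets no p.

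The counts were concentrated in a few names. miR-3068-5p, miR-1839-5p and miR-3559-5p together held 64.3% to 68.1% of the late-numbered counts of a library. miR-3068-5p was the most abundant, at a mean of 152 CPM over the 9 libraries, and ranked 117 among all 762 rows. The 6 counted rows of Snora58, Scarna15 and Scarna3 held 59.4% to 70.6% of them in edited libraries. The range was 60.4% to 72.0% in PDGF-BB and 67.2% to 76.1% in differentiated libraries. Their summed level was 289, 219 and 166 CPM in edited, 470.1, 423 and 349 CPM in PDGF-BB, and 526, 454 and 552 CPM in differentiated libraries. All other late-numbered rows together lay at 118 ± 3.41 CPM in edited, 211 ± 25.0 CPM in PDGF-BB and 196 ± 28.3 CPM in differentiated cells (SD, n = 3 each). Both sums were lower in edited libraries, without overlap with the other groups.

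**Figure D2:**
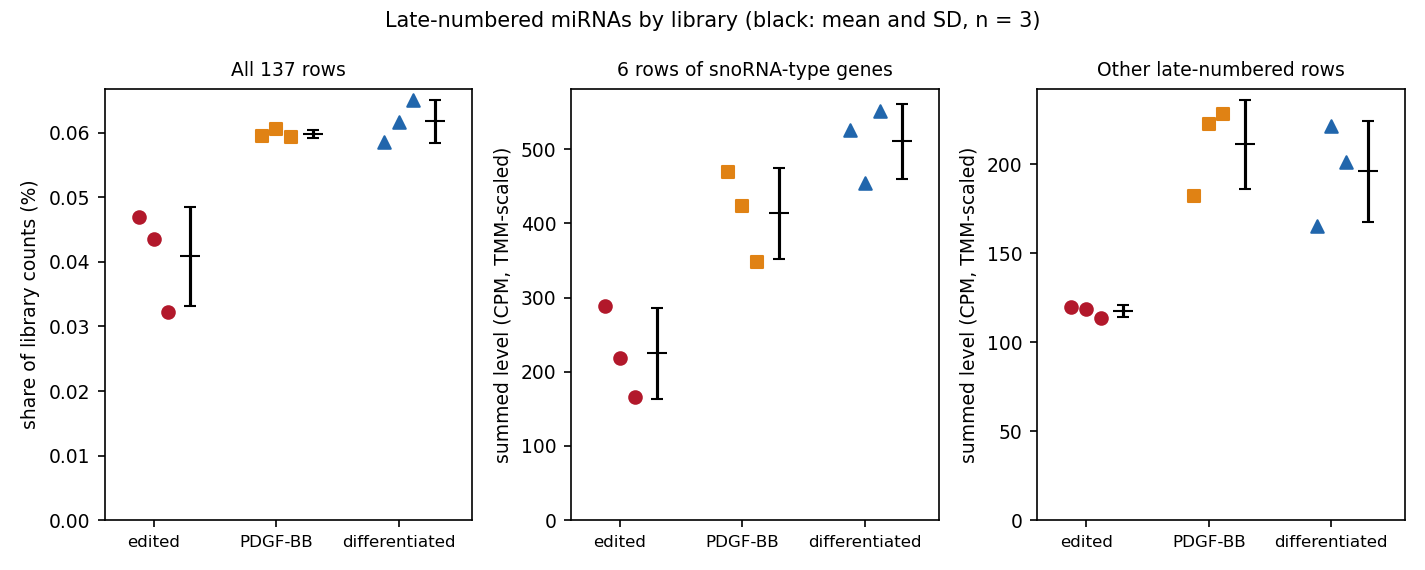
Late-numbered miRNAs in each library: share of counts (%, left), summed CPM of the 6 rows of Snora58, Scarna15 and Scarna3 (middle) and summed CPM of all other late-numbered rows (right), with edited, PDGF-BB and differentiated libraries from left to right and the mean and SD of n = 3 in black. The edited libraries lie lowest in each panel, at 0.0322% to 0.0469% on the left.

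Only 15 of the 137 rows (10.9%) passed the low-count filter, against 289 of 625 other rows (46.2%). The filter asks for about 3.18 CPM in at least 3 libraries, on library totals without TMM scaling. On that unscaled CPM, which differs from the CPM given elsewhere, 10 of the 15 were above the minimum in each of the 9 libraries. miR-3558-5p passed it through PDGF-BB libraries alone, and miR-1306-3p through 3 PDGF-BB libraries and 1 edited library, so a difference in favour of PDGF-BB was built into their choice. miR-3075 was above it in 0 differentiated libraries, miR-3558-3p in 1 differentiated library and miR-1843b-5p in 1 edited library. A lower level in those groups was thus favoured by their choice.

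**Figure D3:**
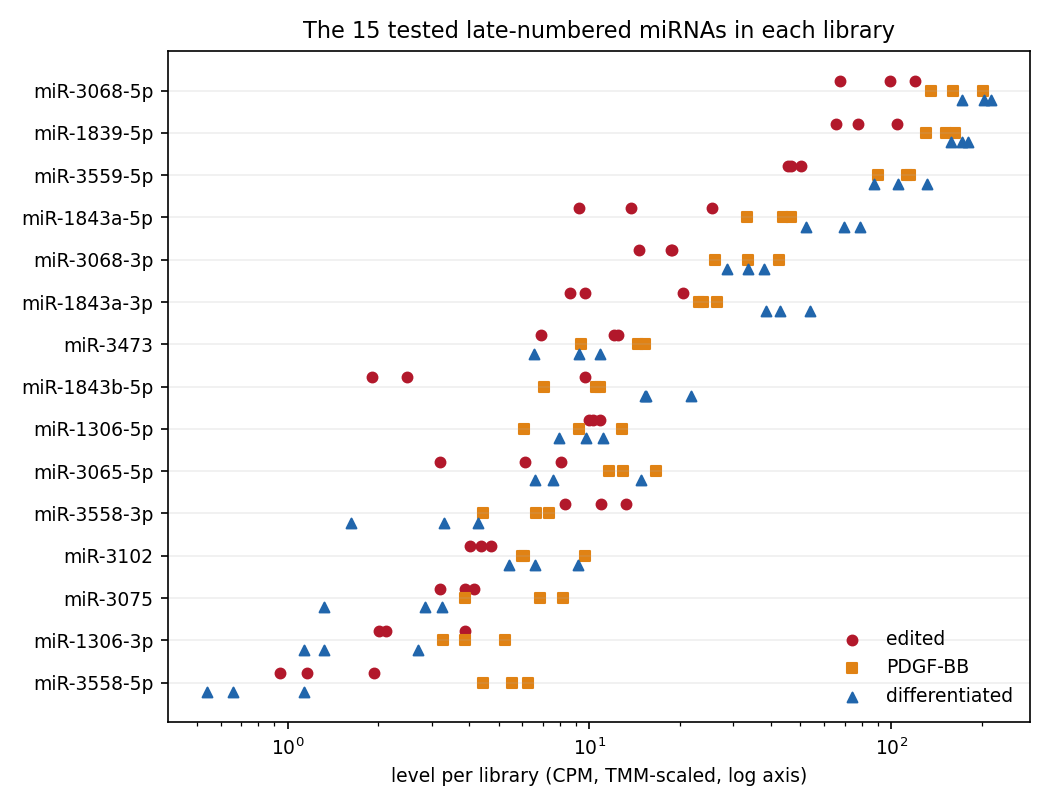
Level in each library (CPM scaled by TMM factors, log axis) of the 15 tested late-numbered miRNAs, ordered by their mean. The edited libraries lie left of the other groups for miR-3068-5p, miR-1839-5p and miR-3559-5p and right of them for miR-3558-3p.

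Edited cells are set against differentiated cells first, the comparison that bears on H3K4me2 editing. By the titles it also sets de-differentiated against differentiated cells. The 6 most abundant late-numbered miRNAs and miR-1843b-5p were lower in edited cells, and miR-3558-3p was higher. Of the 15 tested, 8 passed, 7 lower and 1 higher. Over all tested miRNAs 59.2% passed, 27.0% lower and 32.2% higher. Libraries of the groups did not overlap for 9 of the 15, against 63.5% over all, and 9 had an unadjusted p under 0.05, against 65.1% over all. The median log2 fold change of the 15 was −0.88, beside −0.0064 over all 304. So the share that passed was near the background, and the directions were mostly downwards.

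Each of the 5 tested arms from snoRNA or scaRNA genes fell. miR-3068-5p was at 120, 99.0 and 67.7 CPM in edited libraries, against 203, 172 and 213 CPM in differentiated libraries. Its log2 fold change was −1.04 ± 0.22 (edgeR adjusted p = 0.00282). miR-1839-5p was at 105, 77.3 and 65.7 CPM in edited libraries, against 171, 157 and 180 CPM in differentiated libraries, a log2 fold change of −1.04 ± 0.17 (edgeR adjusted p = 8.3e-04). In both cases edited replicate 1 was the highest of its group and still below each differentiated library.

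miR-3068-3p, the other arm of the Snora58 hairpin, was at 18.8, 18.7 and 14.7 CPM in edited libraries, against 28.5, 33.6 and 37.9 CPM in differentiated libraries. Its fall (−0.95 ± 0.21, edgeR adjusted p = 0.00409) did not pass with library totals as the scaling (−0.49). miR-1843a-5p showed the largest fall of the 5, to 25.5, 13.8 and 9.22 CPM in edited libraries, against 69.5, 52.1 and 79.0 CPM in differentiated libraries (−2.10 ± 0.33, edgeR adjusted p = 7.4e-04). miR-1843a-3p fell by 1.86 ± 0.31 on the log2 scale, to 20.5, 9.68 and 8.63 CPM in edited libraries, against 53.6, 38.4 and 42.7 CPM in differentiated libraries. The arms of one hairpin come from the same transcript, so these are 3 transcripts rather than 5 independent falls.

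miR-1843b-5p, whose row shares 20 bases with miR-1843a-5p, was at 9.69, 1.91 and 2.48 CPM in edited libraries, against 15.2, 15.4 and 21.6 CPM in differentiated libraries. It fell by 2.13 ± 0.54 (edgeR adjusted p = 0.00763). Only 1 edited library was above the minimum of the low-count filter for this row, so a lower level in edited cells was favoured by its choice. With the arms of miR-1843a and miR-1843b summed before the fit, a step added after the data were seen, the 5p arms together changed by −2.07 ± 0.36 and the 3p arms by −1.82 ± 0.31, and both passed (edgeR adjusted p = 0.00104 and 8.8e-04).

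The same annotation puts 1 tested miRNA outside the late-numbered set under a snoRNA gene, miR-664-3p in Snora36c. It lay at 15.1 ± 3.86 CPM in edited cells and 36.2 ± 5.91 CPM in differentiated cells (SD, n = 3 each) and fell as well (−1.27 ± 0.23, edgeR adjusted p = 0.00122). By the rule for the pattern most like that of miR-3068-5p, the 3 miRNAs of all 303 others with the highest Pearson r of log2 CPM over the 9 libraries were miR-1843a-5p (0.976), miR-664-3p (0.975) and miR-504 (0.971). The 9 libraries form groups and differ in depth, so these r are descriptions.

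Among the 10 tested rows outside snoRNA and scaRNA genes, miR-3559-5p and miR-1843b-5p fell, miR-3558-3p rose, and 7 did not pass. miR-3559-5p was at 45.4, 50.0 and 46.7 CPM in edited libraries, against 87.4, 131 and 105 CPM in differentiated libraries. Its change of −1.19 ± 0.17 had the smallest adjusted p of the late-numbered set here (edgeR, 3.3e-04). miR-3558-3p, from the hairpin within Ttc7a, was at 8.30, 10.9 and 13.2 CPM in edited libraries, against 3.31, 4.27 and 1.62 CPM in differentiated libraries. It rose by 1.75 ± 0.35 on the log2 scale (edgeR adjusted p = 0.00227). Only 1 differentiated library was above the minimum of the low-count filter for this row, so a higher level in edited cells was favoured by its choice. The groups of both miRNAs were fully separate. Leaving out any 1 of the 9 libraries lost none of the 8 calls.

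miR-3102 (−0.67 ± 0.30, edgeR adjusted p = 0.0736) and miR-3065-5p (−0.88 ± 0.39, edgeR adjusted p = 0.0779) did not pass. miR-1306-5p, from the Dgcr8 hairpin, lay at 10.4 ± 0.459 CPM in edited and 9.59 ± 1.58 CPM in differentiated cells (SD, n = 3 each), with a log2 fold change of 0.086 ± 0.26. miR-1306-3p (0.59 ± 0.48), miR-3075 (0.51 ± 0.39), miR-3473 (0.32 ± 0.31) and miR-3558-5p (0.50 ± 0.52) did not pass either.

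**Figure D4:**
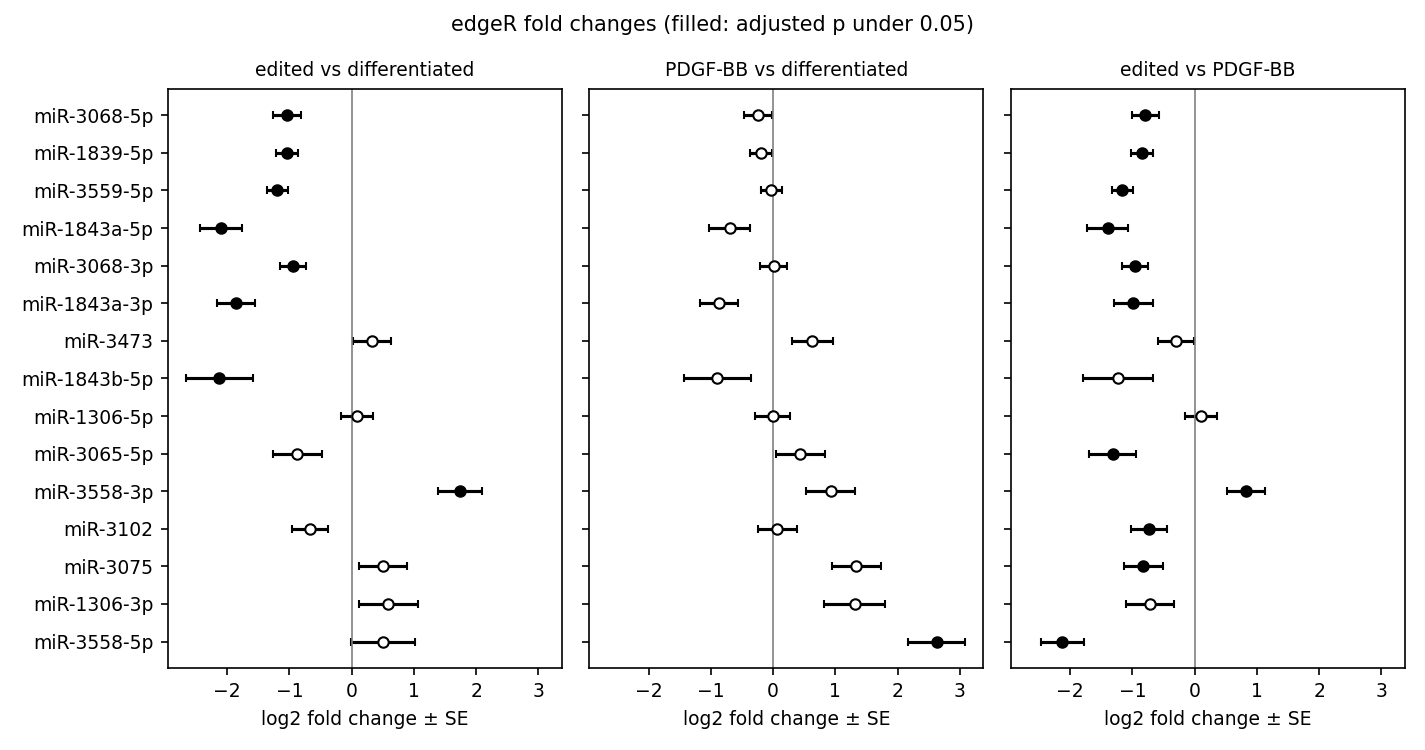
Log2 fold change ± SE (horizontal axis) of the 15 tested late-numbered miRNAs in the 3 comparisons, with filled points for an edgeR adjusted p under 0.05. Filled points lie mostly left of 0 in the outer panels (7 of 8 and 10 of 11), and the middle panel holds 1, miR-3558-5p at 2.63.

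For PDGF-BB against differentiated cells, 1 of the 15 tested passed, miR-3558-5p, which was higher. This row was tested only through its PDGF-BB libraries, so a higher level there was built into its choice. Without edited replicate 1, 5 late-numbered miRNAs passed. That fit also tested rows outside the 15, such as miR-3065-3p. Its share over all miRNAs is not given here, so the 5 cannot be set against the shares that follow. In the fit to all 9 libraries 10.2% of all tested miRNAs passed, 7.24% higher and 2.96% lower. Libraries did not overlap for 7 of the 15, against 35.2% over all, and the median log2 fold change was 0.0083, beside 0.031 over all 304. At an unadjusted p under 0.05 there were 5 of the 15, beside 24.3% over all.

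miR-3558-5p was at 5.53, 4.43 and 6.26 CPM in PDGF-BB libraries, against 0.662, 1.14 and 0.541 CPM in differentiated libraries. Its PDGF-BB libraries held 44 counts in all and its differentiated libraries 6. The log2 fold change was 2.63 ± 0.46 (edgeR adjusted p = 0.00888). Without differentiated replicate 3 it was 2.41 and did not pass (edgeR adjusted p = 0.0710), and with the stricter filter the row was not tested, which left 0 calls and 2 of 11 at an unadjusted p under 0.05. The other arm, miR-3558-3p, was at 6.64, 4.43 and 7.35 CPM in PDGF-BB libraries, against 3.31, 4.27 and 1.62 CPM in differentiated libraries. It did not overlap between the groups and did not pass (0.92 ± 0.40, edgeR adjusted p = 0.187).

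The snoRNA and scaRNA arms did not pass, with log2 fold changes from −0.87 to 0.0083. The 3 arms of miR-1843 lay lower in each PDGF-BB library than in each differentiated one. miR-1843a-3p was at 26.5, 23.8 and 23.1 CPM in PDGF-BB libraries, against 53.6, 38.4 and 42.7 CPM in differentiated libraries (−0.87 ± 0.31, edgeR adjusted p = 0.120). It passed with DESeq2 (−0.93, adjusted p = 0.0409), with the 6 compared libraries alone (−0.84, edgeR adjusted p = 0.0138) and without edited replicate 1 (−0.90, edgeR adjusted p = 0.00528). miR-1843b-5p (−0.90 ± 0.53) passed in the same last 2 settings (edgeR adjusted p = 0.0498 and 0.0319), and miR-1843a-5p (−0.70 ± 0.33) without edited replicate 1 (edgeR adjusted p = 0.0335). miR-3075 (1.33 ± 0.39, edgeR adjusted p = 0.0638) and miR-1306-3p (1.31 ± 0.49, edgeR adjusted p = 0.138) lay higher in each PDGF-BB library and did not pass. Both were above the minimum of the low-count filter in 0 differentiated libraries, so this direction was favoured by their choice. miR-3559-5p, at 106 ± 13.9 CPM in PDGF-BB and 108 ± 21.9 CPM in differentiated cells (SD, n = 3 each), had a log2 fold change of −0.030 ± 0.17.

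For edited against PDGF-BB cells 11 of the 15 passed, 10 lower and 1 higher. This comparison shares its libraries with the others, so its values are not separate evidence. Over all tested miRNAs 58.9% passed, 30.9% lower and 28.0% higher. Libraries did not overlap for 10 of the 15, against 60.2% over all, and 11 had an unadjusted p under 0.05, against 62.5% over all. The median log2 fold change was −0.85, beside −0.022 over all 304 miRNAs. With library totals as the scaling 6 passed, 5 lower and 1 higher, and the falls of miR-3068-5p, miR-1843a-3p, miR-3065-5p, miR-3075 and miR-3102 were lost.

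The arms from snoRNA and scaRNA genes fell again, with miR-3068-5p at −0.79 ± 0.22, miR-3068-3p at −0.95 ± 0.21, miR-1839-5p at −0.85 ± 0.17, miR-1843a-5p at −1.40 ± 0.34 and miR-1843a-3p at −0.99 ± 0.31. The edgeR adjusted p lay between 0.00237 for miR-1839-5p and 0.0202 for miR-1843a-3p. miR-3068-5p was at 202, 159.5 and 135 CPM in PDGF-BB libraries, above the 67.7 to 120 CPM of edited libraries given before. Its call was lost without PDGF-BB replicate 1 (−0.60), and that of miR-1843a-3p without PDGF-BB replicate 1 or 2 or edited replicate 2 or 3. miR-664-3p, outside the late-numbered set, also fell (−0.77 ± 0.23, edgeR adjusted p = 0.0163).

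miR-3559-5p had the smallest adjusted p here as well, with 45.4, 50.0 and 46.7 CPM in edited libraries, against 90.1, 115 and 113 CPM in PDGF-BB libraries (−1.16 ± 0.17, edgeR adjusted p = 2.9e-04). miR-3065-5p, with the miR-7a-1-3p seed, was at 8.03, 6.14 and 3.19 CPM in edited libraries, against 11.6, 12.9 and 16.6 CPM in PDGF-BB libraries. It fell by 1.31 ± 0.38 (edgeR adjusted p = 0.0140), a call lost without PDGF-BB replicate 3 (−1.13). miR-7a-1-3p itself did not pass (−0.23 ± 0.19). miR-3102 (−0.74 ± 0.29, edgeR adjusted p = 0.0470) and miR-3075 (−0.82 ± 0.32, edgeR adjusted p = 0.0460) passed narrowly. The call of miR-3102 was lost in each of the 9 fits without 1 library and that of miR-3075 in 8 of them, all but the fit without PDGF-BB replicate 1, and the libraries of miR-3075 overlapped.

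The arms of miR-3558 had log2 fold changes of opposite sign between these groups. The 5p arm was testable only through its PDGF-BB libraries, so a lower level in edited cells was built into its choice. miR-3558-5p was at 1.94, 1.16 and 0.945 CPM in edited libraries, against 5.53, 4.43 and 6.26 CPM in PDGF-BB libraries (−2.12 ± 0.34, edgeR adjusted p = 5.8e-04). miR-3558-3p was at 8.30, 10.9 and 13.2 CPM in edited libraries, against 6.64, 4.43 and 7.35 CPM in PDGF-BB libraries (0.82 ± 0.31, edgeR adjusted p = 0.0424). The call of the 5p arm held in each fit without 1 library. That of the 3p arm was lost without any 1 of the PDGF-BB replicates and without edited replicate 2 or 3.

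The share of miR-3558 counts on the 3p arm shows this within each library. It was 81.1%, 90.4% and 93.3% in edited libraries, 54.5%, 50.0% and 54.0% in PDGF-BB libraries and 83.3%, 78.9% and 75.0% in differentiated libraries. The PDGF-BB libraries thus lay apart from both other groups, which overlapped each other. Since the 5p arm was tested only through its PDGF-BB libraries, a lower 3p share in that group was built into the choice of this hairpin. Pooled over a group, the 3p arm had 302 of 334 counts in edited, 50 of 94 in PDGF-BB and 23 of 29 in differentiated cells, with 95% Wilson intervals of 86.8% to 93.1%, 43.2% to 63.0% and 61.6% to 90.2% that cover counting error only. The log2 ratio of 3p to 5p counts differed by 2.88 between edited and PDGF-BB cells and by −1.77 between PDGF-BB and differentiated cells. For each the two-sided exact permutation p was 0.1, the smallest that 3 against 3 libraries allow, and 0.343 after Benjamini-Hochberg adjustment over the 12 tests of this kind.

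The other 3 hairpins with both arms tested kept more of their counts on the 5p arm in each library. miR-3068 had 15.8% ± 2.10 of its counts on the 3p arm in edited, 17.0% ± 0.670 in PDGF-BB and 14.6% ± 2.07 in differentiated libraries (SD, n = 3 each). miR-1843a had 44.7% ± 3.54, 37.5% ± 3.13 and 40.4% ± 4.59 in the same order. Its edited libraries lay above its PDGF-BB libraries without overlap, if narrowly (41.3% against 41.1% at the closest, exact permutation p = 0.1). For miR-1306 the 3p share was 28.0%, 17.0% and 15.6% in edited, 38.9%, 36.1% and 20.3% in PDGF-BB and 14.3%, 9.30% and 21.7% in differentiated libraries, and the groups overlapped. The exact permutation p of their 9 tests lay between 0.1 and 0.6. Among hairpins with 1 tested arm, the 5p arm held 99.5% of the counts of miR-1839 and 97.2% of those of miR-3559 over the 9 libraries.

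**Figure D5:**
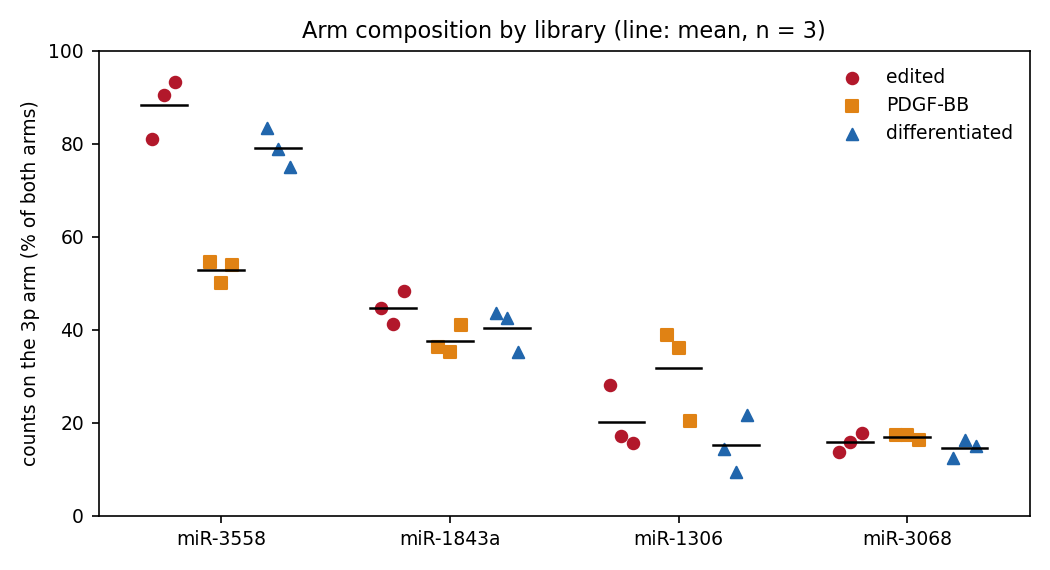
Counts on the 3p arm as a percentage of both arms (vertical axis) for the 4 late-numbered hairpins with both arms tested, one point per library, edited, PDGF-BB and differentiated from left to right, lines at the means. For miR-3558 the PDGF-BB libraries lie at 50.0% to 54.5%, below the 75.0% to 93.3% of the other groups. Its 5p arm was tested only through its PDGF-BB libraries.

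Some late-numbered miRNAs lie opposite a better known miRNA. By RefSeq positions 33 of the 122 with a sequence do, and 8 of these had a count in some library. miR-3065, opposite miR-338, was the 1 hairpin with a tested arm. Its partner miR-338-3p had 1 count in the edited group, 23 in the PDGF-BB group and 18 in the differentiated group, and was under the filter. miR-3065-3p, also under the filter, had 1, 10 and 9 counts in edited, 7, 8 and 15 in PDGF-BB and 2, 3 and 1 in differentiated libraries. It became testable and higher in PDGF-BB than in differentiated cells without edited replicate 1 (2.04, edgeR adjusted p = 0.0180) or without edited replicate 3 (2.06, edgeR adjusted p = 0.0313). Its level was 3.22 to 4.08 CPM in PDGF-BB libraries and at most 1.32 CPM in the others. A difference in favour of PDGF-BB was thus built into its choice. Without any 1 differentiated replicate, PDGF-BB replicate 1 or 2, or edited replicate 2, it was tested too and did not pass in this comparison.

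miR-3074, opposite miR-24-1, had 17 counts over the edited, 13 over the PDGF-BB and 5 over the differentiated libraries. The arm named for that hairpin, miR-24-1-5p, was counted 6 times in edited cells and 0 times in PDGF-BB and differentiated cells. miR-24-3p, whose name gives no single hairpin, was at 12507 ± 1361 CPM in edited, 9367 ± 426 in PDGF-BB and 9581 ± 448 in differentiated cells (SD, n = 3 each). miR-3120, opposite miR-214, had 2 counts in all, while miR-214-3p was at 367 ± 47.2, 173 ± 33.9 and 218 ± 45.8 CPM in the same order. miR-3556a, opposite miR-29a, had 1 count over the edited, 6 over the PDGF-BB and 8 over the differentiated libraries, where miR-29a-5p had 1417, 634 and 370 counts. The other arm, miR-29a-3p, had 642397, 213595 and 131434 counts in the same order. miR-3120 and miR-3556a thus had fewer counts than the partners named here. miR-3074 had more counts than miR-24-1-5p but far fewer than miR-24-3p, with 348757 in edited, 73790 in PDGF-BB and 64959 in differentiated libraries. miR-3065-5p had more counts than miR-338-3p.

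The other position lists were nearly empty. miR-1298 and both arms of miR-1912, which RefSeq places within the bounds of Htr2c, had 0 counts, as did miR-1188 of the imprinted Dlk1-Dio3 region. miR-1193 of that region had 4 counts in all. miR-1247 lies beside Dio3 by RefSeq positions. miR-1247-3p had 1, 0 and 0 counts in edited, 8, 4 and 11 in PDGF-BB and 3, 5 and 3 in differentiated libraries. Edited replicates 2 and 3, with no count, were the deepest libraries. The ratio of its rate in edited to that in differentiated cells was 0.0234 (95% exact interval 0.000543 to 0.161) and to that in PDGF-BB cells 0.0129 (0.000314 to 0.0797), intervals that cover counting error only. miR-1247-5p had 0 counts over the edited, 8 over the PDGF-BB and 3 over the differentiated libraries.

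Without the low-count filter 66 late-numbered miRNAs entered the fit. The calls were then 1 higher and 12 lower for edited against differentiated cells, where 37.6% of all miRNAs passed. They were 1 higher and 13 lower for edited against PDGF-BB cells, where 38.6% passed, and 1 higher for PDGF-BB against differentiated cells, where 5.38% passed. Rows added in this way were miR-1247-3p, miR-1247-5p, miR-3556a and miR-3559-3p in both comparisons of edited cells, miR-3585-5p against differentiated cells and miR-3065-3p against PDGF-BB cells. Against differentiated cells, miR-3585-5p rested on 0 counts against 4 and miR-1247-5p on 0 against 3, and the libraries of both overlapped. miR-3559-3p had 33 counts over the edited, 25 over the PDGF-BB and 26 over the differentiated libraries and fell in both comparisons like its 5p arm (−1.22 ± 0.42 against PDGF-BB and −1.50 ± 0.42 against differentiated cells, edgeR adjusted p = 0.0289 and 0.00951).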

How the data were processed

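Per the labels' protocols, a QIAseq kit for small RNA was used for the libraries, which a NextSeq sequenced. The table holds raw counts per mature rat miRNA in 9 libraries, as deposited by the authors. The submitters' processing notes name the build Rnor_6.0. The sources used here give no aligner, counter, miRBase release or use of molecular identifiers, so a count may be a read or a molecule. Titles gave the groups and matched the columns, and 0 columns belonged to other samples. Replicates differed by more than sampling noise (chi-square per degree of freedom from 15.0 to 576).

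One quasi-likelihood model of edgeR 4.0.16 (R 4.3.3) took all 9 libraries, with group means, TMM scaling and filterByExpr at a minimum of 10 counts. SE is the absolute log2 fold change over the square root of F. The fit was tested on simulated data. DESeq2 1.42.0, other scalings, filters and sample sets were alternatives. Exact tests used scipy 1.17.1. Sequences and positions are from RefSeq tables of GRCr8, matched by name for 686 of 762 rows.

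The miRNAs and lists were chosen with earlier results of these data known. Named are the late-numbered miRNAs that passed, the 10 most abundant, tested seed sharers and listed positions. The snoRNA grouping, miR-664-3p, the arm shares of miR-3558, miR-1247, miR-3556a, miR-3559-3p and miR-3585-5p were chosen after their values were seen.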

Additional observations from a re-analysis of the deposited data

How the results depend on the processing

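The number of late-numbered miRNAs that passed for edited against differentiated cells (8) was 13 without the low-count filter. For edited against PDGF-BB cells (11) it was 6 with library totals. Calls of miR-3075 and miR-3102 in that comparison were also absent with RLE factors, DESeq2, the stricter or no filter, and the 6 compared libraries alone. For PDGF-BB against differentiated cells (1) the number that passed was 2 with DESeq2 and with the 6 compared libraries alone, and 0 with the stricter filter. In fits without 1 library these counts were 9 to 10, 8 to 13 and 0 to 5 in the same order of comparisons. The 0 was in the edgeR fit without differentiated replicate 3, where 5 of 18 had an unadjusted p under 0.05, and DESeq2 was run with all libraries only. The 5 was without edited replicate 1. The fits without 1 library tested other sets of rows, and their shares over all miRNAs are not given here. The fit with replicate number as a block gave 8, 9 and 1 calls and lost miR-3102 (edgeR adjusted p = 0.0699) and miR-3558-3p (0.0505) in edited against PDGF-BB cells. Libraries of equal number deviated together in 4 of 9 pairs (r over 0.1). These were the pairs of replicate 1 (0.140, 0.229 and 0.415) and PDGF-BB with edited replicate 3 (0.285). The highest r of a pair of unequal number was 0.523. Whether equal numbers mark a shared source was thus not settled.

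Signs turned only for values that did not pass in either setting. miR-3473 in edited against PDGF-BB cells was at 0.013 with library totals, and miR-1306-5p at −0.076 to 0.41 without 1 library. In PDGF-BB against differentiated cells miR-1306-5p was at 0.13 with library totals, 0.025 with the compared libraries alone and −0.32 to 0.18 without 1 library. miR-3559-5p was at 0.10 with library totals and −0.14 to 0.14 without 1 library, miR-3102 at −0.19 to 0.25 without 1 library, and miR-3068-3p at −0.040 with RLE factors, −0.046 with DESeq2, −0.0096 with the block and −0.18 to 0.18 without 1 library.

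The share of counts in edited, PDGF-BB and differentiated cells was 0.0295%, 0.0441% and 0.0447% without miR-3068-5p, and 0.0667%, 0.122% and 0.137% of counts outside the 5 most abundant miRNAs. With TMM-scaled totals it was 0.0625% in PDGF-BB and 0.0707% in differentiated cells. Without 1 library the shares spanned 0.0379% to 0.0452%, 0.0595% to 0.0601% and 0.0601% to 0.0634%. The number detected at 10 or more counts was 18.3, 16 and 12, and at 3 or more it was 23.3 in differentiated cells. Without 1 library it spanned 41.5 to 45.0, 35.5 to 40.0 and 35.5 to 43.0. Where a value moved, the cause was not tested beyond what each setting changes by its construction. Depth limits rows under about 3 CPM.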
